A study of Mus musculus with 4 samples.

Results

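The genes described here encode the proteins of the cytosolic ribosome. They were the protein-coding genes whose symbol is Rps or Rpl followed by a number, with the stalk genes Rplp0 to Rplp2 and Rpsa, and with at least 10 CPM (counts scaled to a common library size) in at least 1 library. Of 35275 genes listed, 83 protein-coding genes matched by symbol and 79 of them passed, 32 of the small and 47 of the large subunit; the rule used the level of a gene and no difference between libraries. RNA was sequenced from thymocytes, the T cell precursors of the thymus, of untreated C57BL/6 mice 6 to 8 weeks old, in 4 libraries with 1 library per group. Cells were sorted by flow cytometry as group 2 (TCRβint CD69hi) or group 3 (TCRβhi CD69hi), which are successive stages of thymocytes that have received a T cell receptor signal. Within each sorted group the titles name a WT library, from Uba3F/F mice whose Uba3 gene carries floxed alleles, and a KO library, from Uba3ΔT mice labelled Uba3-/-. The labels do not name the Cre driver, the sex of the mice or how many mice gave a library. The comparisons were KO against WT in each sorted group and group 3 against group 2 in each genotype.

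Each ribosome holds 1 copy of nearly every ribosomal protein, so cells make these proteins in balanced amounts. Their mRNAs begin with a run of pyrimidines, the terminal oligopyrimidine tract, through which mTOR signalling and the RNA-binding protein Larp1 control their translation together. In the thymus, cells enlarge and make new ribosomes when they proliferate, and loss of Rpl22 in mice blocks the development of the αβ lineage.

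The libraries held between 8043077 and 10299863 counts, so a member was counted between 57 and 12980 times. Uba3, the targeted gene, which encodes a subunit of the NEDD8-activating enzyme, went against its label. Its TMM-scaled level (CPM after edgeR's correction for composition, the unit of all levels below unless RPKM is named) was 43.2 in WT group 2 and 73.3 in KO group 2, and 43.7 in WT group 3 and 89.9 in KO group 3. The ratio of KO over WT was 1.70 (95% interval 1.504 to 1.92) in group 2 and 2.06 (1.82 to 2.34) in group 3, and the deleted part cannot be read from gene counts, so "KO" below means the library labelled KO. The titles set the sorted groups used here, although another label field names group 2 for every WT sample and group 3 for every KO sample. Ccr7, a listed thymocyte marker, went with the titles. It was at 195.5 CPM in WT group 2 and 159.9 in KO group 2, and at 592.4 in WT group 3 and 598.9 in KO group 3. All 13 listed thymocyte markers, among them Cd3e, Cd4, Cd8a and Rag1, were detected in every library. A difference between 2 libraries had no replicate check, the intervals given cover counting error only, and in bulk RNA a change in the kinds of cells cannot be told apart from a change within a cell.

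The first bases of the members' transcripts are shown for those on which the results turn. RefSeq promoter entries (build GRCm38.p6) were found for 59 of the 79 members. Each line holds 30 bases on the gene's strand, 10 before the annotated start and 20 from it on, with the pyrimidine tract in capitals where there is one. A tract was a C followed by at least 4 more pyrimidines and beginning within 5 bases of the start.
Rpl12, chr2:32961702-32961731, plus strand: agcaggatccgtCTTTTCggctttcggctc
Rpl38, chr11:114668570-114668599, plus strand: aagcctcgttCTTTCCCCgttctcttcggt
Rpl39, chrX:37085203-37085232, minus strand: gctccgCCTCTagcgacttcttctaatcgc
Rps27, chr3:90213629-90213658, minus strand: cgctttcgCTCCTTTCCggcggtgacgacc
Rpl22l1, chr3:28805498-28805527, plus strand: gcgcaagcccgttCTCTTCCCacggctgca
Rps26, chr10:128626487-128626516, minus strand: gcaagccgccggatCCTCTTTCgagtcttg
Rps6, chr4:86857348-86857377, minus strand: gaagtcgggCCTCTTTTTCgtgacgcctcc
Rpl4, chr9:64173377-64173406, plus strand: tttcctgtgggagcagccgggtagagagga
Rplp0, chr5:115559457-115559486, plus strand: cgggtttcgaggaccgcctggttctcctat
Rpsa, chr9:120127756-120127785, plus strand: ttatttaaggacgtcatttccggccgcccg
The first 7 hold a tract and the last 3 do not hold one at the annotated start.

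Of the 59 members with an entry, 29 (49.2%) had a tract, against 5718 of 27025 genes (21.2%) in the whole table. The 300 bases around the start (250 before and 50 after) held CCGGAAG, the core of the motif bound by GABP and other ETS factors, on either strand in 25 members (42.4%) and in 9.93% of all genes. AAGATGGCG, the core of the YY1 motif, stood in 4 members (6.78%) and 1.64% of all genes, and TATAAA in 7 members (11.9%) and 15.7% of all genes. A match is a description of the letters in this window. The GABP core, read on the other strand, begins with letters that also meet the tract definition, and a match shared bases with the tract in 1 member, Rpl34. The median log2 fold of KO over WT was -0.19 with a tract and -0.11 without in group 2, and 0.39 against 0.13 in group 3. For group 3 over group 2 it was -0.40 with a tract and -0.26 without in WT, and 0.20 against 0.04 in KO, so all 4 medians lay further from 0 with a tract. Members with a tract also had shorter genes, with a median of 662 bp against 745 bp. Their level per length (RPKM) was lower as well, with a median of 183 against 285. The parts of length and level in this difference cannot be read from these medians.

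Members differed far more from each other than between libraries. Per length of the gene, in the deposited RPKM (counts scaled by gene length and library size), the highest member was Rplp0, the scaffold of the ribosomal stalk, at 1437 in WT group 2, 1482 in WT group 3, 1642 in KO group 2 and 1336 in KO group 3. Rps3a1 and Rps9, proteins of the small subunit, followed in the mean RPKM over the libraries at 864 and 849. The lowest RPKM belonged to Rpl23a, at 14.5, 12.9, 11.6 and 19.1 in the same order, and Rpl35 and Rpl22 came next with mean RPKM of 31.5 and 42.8. The range from the lowest to the highest member was 69.8-fold in KO group 3 and between 99.3-fold and 142-fold in the others. For a single member, the highest library exceeded the lowest by a median of 1.33-fold in TMM-scaled level, against 1.27-fold for all 2760 genes at 100 CPM. It did so by at least 2-fold for Rpl12, Rpl38 and Rpl39, which is 3.80% of members, against 4.93% of those genes. Of the 79 members, 60 reached 100 CPM, and Rpl38 and Rpl39 did not.

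**Figure D1:**
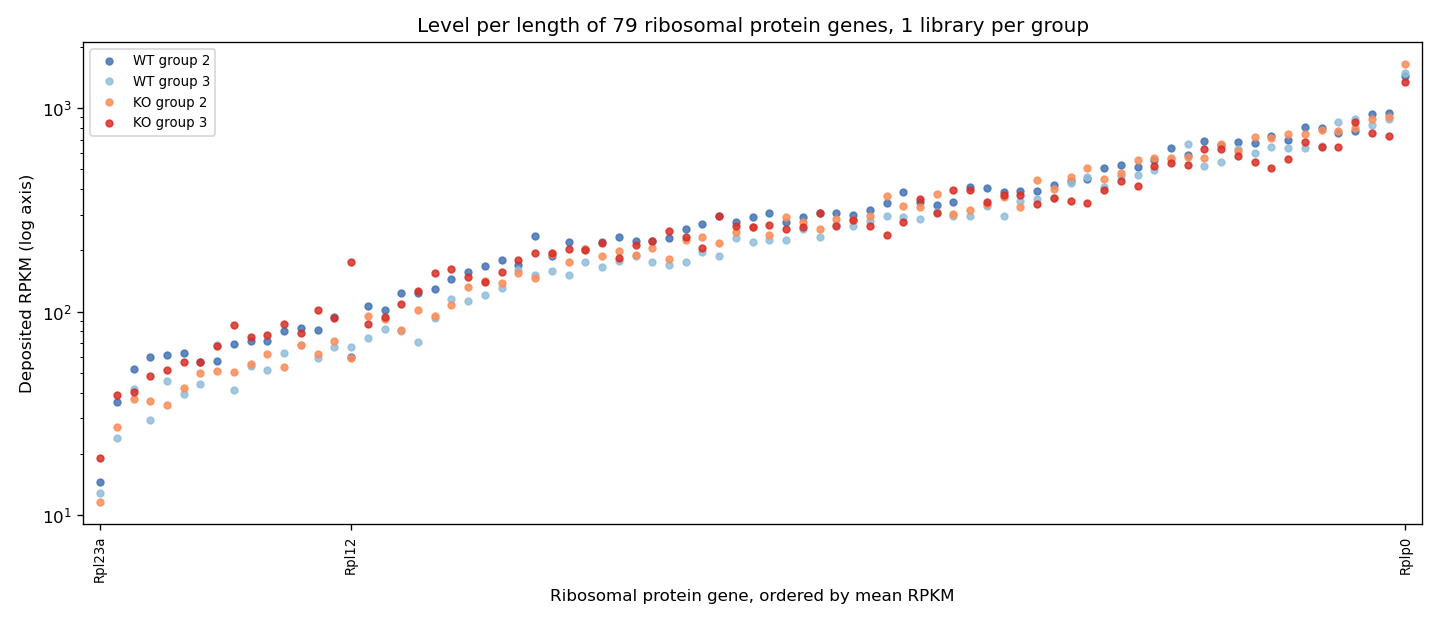
Deposited RPKM (log axis) of each of the 79 ribosomal protein genes in each library, with genes ordered by their mean over the 4 libraries and 3 of them named on the axis; each point is 1 library. Rpl23a is lowest and Rplp0 highest in every library, and the 4 points of a gene lie close together except for Rpl12, where KO group 3 stands above the rest.

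Many ribosomal protein genes have near-identical processed pseudogenes. The table listed 242 pseudogenes named after a member, 153 of them with counts, and together they held between 797 and 1175 counts in a library, against 160373 to 228243 for the members. How the authors' counting treated reads that align to several places is not given in the sources used here, so the order of levels among members is uncertain. Close to the threshold, Rpl23a passed with a highest CPM (scaled by library total) of 10.5, reached in KO group 3 alone. Rpl35 followed with 23.2. The 4 genes that failed were Rpl3l with a highest CPM of 2.23, Rpl24 with 2.11, Rpl39l with 0.558 and Rpl10l with 0.223. Rpl24 encodes a protein found in every cytosolic ribosome and had 7, 17, 14 and 19 counts in WT group 2, WT group 3, KO group 2 and KO group 3. Rpl3l (muscle), Rpl10l and Rpl39l (testis) are tissue-restricted copies of Rpl3, Rpl10 and Rpl39.

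Summed over all members, the level was lower in group 3 than in group 2 in both genotypes. It was 21745 CPM in WT group 2, 19669 in WT group 3, 21724 in KO group 2 and 19985 in KO group 3. The ratio of group 3 over group 2 was 0.905 (95% interval 0.899 to 0.910) in WT and 0.920 (0.914 to 0.926) in KO, and it was below 1 under each of 3 scalings. KO over WT was 0.999 (0.993 to 1.005) in group 2 and 1.016 (1.009 to 1.023) in group 3, where scaling by library totals turned it to 0.985. As a share of all counts, members made up 2.22% (exact 95% interval 2.21 to 2.22) of WT group 2, 1.99% (1.98 to 2.00) of WT group 3, 2.14% (2.13 to 2.15) of KO group 2 and 1.96% (1.96 to 1.97) of KO group 3. Small subunit genes went from group 2 to group 3 by a ratio of 0.875 in WT and 0.904 in KO, and large subunit genes by 0.924 and 0.930. The counts of large over small subunit genes therefore stood at 1.51 in WT group 2, 1.53 in KO group 2, 1.59 in WT group 3 and 1.58 in KO group 3.

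A sum is led by the most abundant genes, and these did not move like the others. The 5 most abundant members by mean level, Rplp0, Rpl4, Rpl13, Rps3a1 and Rpsa, summed to a KO over WT ratio of 1.10 in group 2 and 0.868 in group 3. The other 74 members had ratios of 0.970 and 1.069, on the opposite sides of 1. With members split by the length of gene that the deposited RPKM imply, the 26 shortest, up to 589 bp, summed to 3197 CPM in WT group 2, 2437 in WT group 3, 2797 in KO group 2 and 3171 in KO group 3. Their KO over WT ratio was 0.875 (0.860 to 0.889) in group 2 and 1.30 (1.28 to 1.32) in group 3. The 27 longest, from 828 bp on, summed to 11874, 11527, 12398 and 10858 CPM in the same order, with ratios of 1.044 (1.036 to 1.053) and 0.942 (0.934 to 0.950). The sum of the short genes was thus high in WT group 2 and KO group 3. The sum of the long genes was highest in KO group 2 and lowest in KO group 3. Most of the 27 long genes did not move like their sum. In group 2, 17 of them were lower in KO than in WT, and in group 3, 15 were higher.

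**Figure D2:**
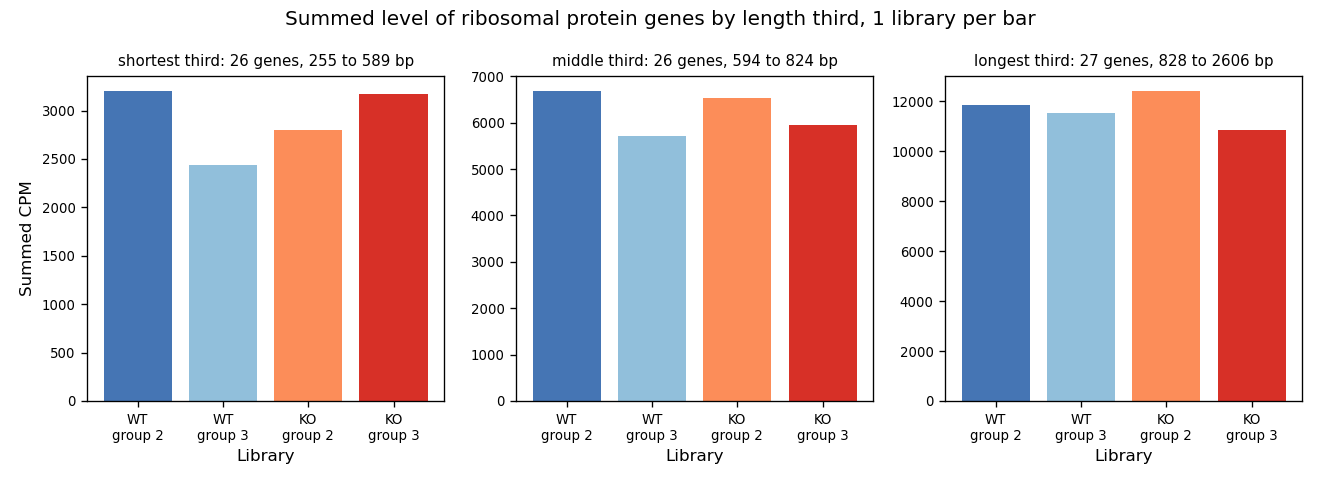
Summed TMM-scaled CPM of the members in each library (1 bar per library, axis from 0, with its own scale in each panel), for the 79 genes split by length into the 26 shortest, the 26 in the middle and the 27 longest. Among the shortest the WT group 3 bar is lowest (2437), and among the longest the KO group 3 bar is lowest (10858).

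In group 2, members were mostly a little lower in KO than in WT. Their median log2 fold was -0.12 (59 of 79 below 0), against 0.00 for all 12490 genes at 2 CPM and 0.02 for genes at 100 CPM. A member counted as different when 1 library was at least 25% higher than the other and the 95% interval of the ratio excluded 1, called the 25% rule below. By that rule 15 members were lower, where 16.7% of all genes at 2 CPM and 10% of genes at 100 CPM were lower, and 0 members were higher, against 18.5% and 12.8%. The lowest folds were those of Rpl36a (-0.76), Rpl39 (-0.64), Rps26 (-0.64), Rps27l (-0.55) and Rpl22l1 (-0.53). Rpl36a, an X-linked large subunit gene, was at 36.7 CPM in WT group 2 and 21.5 in KO group 2, and at 27.6 and 32.2 in WT and KO group 3. Its KO group 2 level was the lowest of the 4 libraries. Among the highest folds were those of Rplp0 (0.24), Rps3 (0.23), Rpsa (0.23) and Rpl8 (0.17), and none of these 4 met the 25% rule.

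In group 3 the direction was the opposite for most members. The median log2 fold of KO over WT was 0.24 (59 of 79 above 0), against -0.01 for all genes at 2 CPM and 0.06 for genes at 100 CPM. By the same rule 30 members were higher, where 14.5% of genes at 2 CPM and 14.4% of genes at 100 CPM were higher, and 2 were lower, against 17.2% and 7.14%. Past 2-fold there were 2 members, Rpl12 and Rpl38, both higher, where 2.48% of genes at 2 CPM and 0.725% of genes at 100 CPM were higher. The highest log2 folds were those of Rpl12 (1.41), Rpl38 (1.09), Rps27 (0.87), Rpl37 (0.82) and Rps29 (0.78). The lowest were those of Rpsa (-0.38), Rpl4 (-0.36), Rpl7 (-0.30), Rpl3 (-0.30) and Rpl7a (-0.26), and the 2 members lower by the rule were Rpsa and Rpl4. The groups of 5 at either end differ in size as well, since Rpl38, Rps27 and Rps29 are among the shortest members and Rpsa, Rpl4, Rpl7 and Rpl3 among the longer ones.

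Taken gene by gene, 51 of 79 members (64.6%) were lower in KO than WT in group 2 and higher in group 3, whatever the size, against 21.3% of genes at 2 CPM and 24.3% of genes at 100 CPM. The 4 libraries of these 2 comparisons are all different. The 25% rule was met in both directions by 12 members, against 1.45% of genes at 2 CPM and 0.652% of genes at 100 CPM. They were Rpl22l1, Rpl35, Rpl35a, Rpl36, Rpl37, Rpl38, Rpl39, Rps21, Rps25, Rps26, Rps27l and Rps29, and all 12 were singled out after their values were seen. Of the 79 members, 60 reached 100 CPM, and of these 12 only Rpl36, Rps25 and Rps26 did. For all 12, WT group 2 and KO group 3 were the upper libraries and WT group 3 and KO group 2 the lower ones. The 2 lower libraries were also those with more genes detected, 23325 in WT group 3 and 23925 in KO group 2 against 20440 in WT group 2 and 20521 in KO group 3. The part of this difference between libraries in the members' pattern was not tested.

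**Figure D3:**
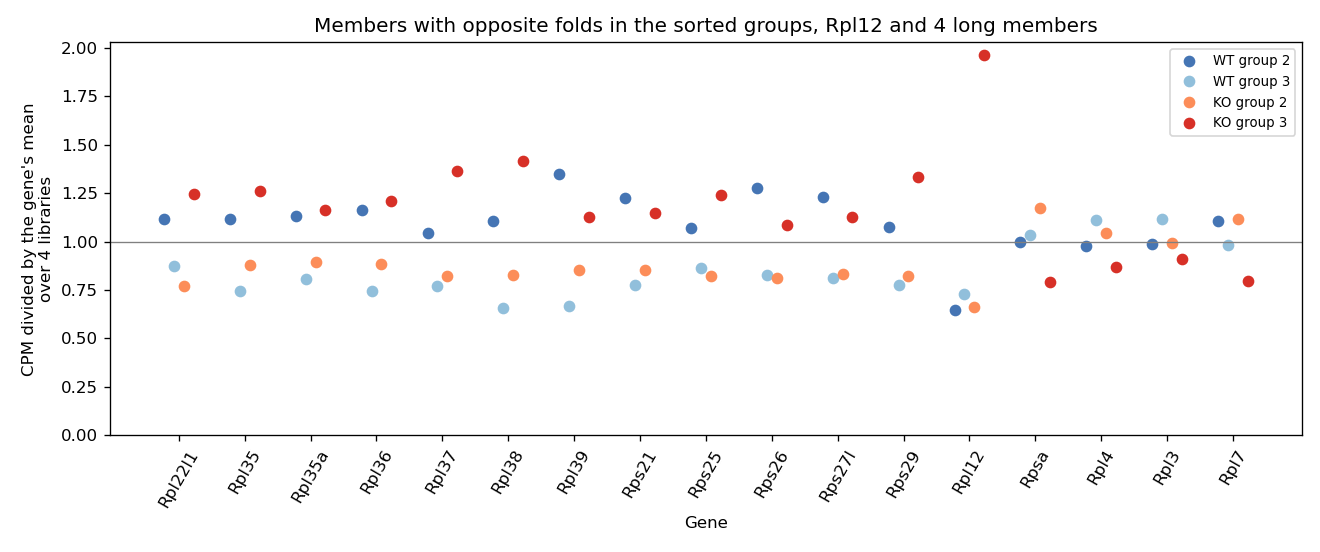
Level of each gene in each library divided by the gene's mean over the 4 libraries (TMM-scaled CPM), for the 12 members that met the rule in opposite directions, Rpl12 and 4 long members; each point is 1 library and the line marks the mean. In the first 12 genes the WT group 2 and KO group 3 points lie above 1 and the other 2 below it, and for Rpl12 the KO group 3 point lies alone near 2.

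Between the sorted groups, the WT libraries differed in 1 direction. The median log2 fold of group 3 over group 2 in WT was -0.28 (72 of 79 below 0), against -0.00 for all genes at 2 CPM and -0.03 for genes at 100 CPM. By the 25% rule 35 members were lower in group 3, where 14.1% of genes at 2 CPM and 10.4% of genes at 100 CPM were lower, and 0 were higher, against 15.9% and 9.17%. Rpl39 (-0.99) was the single member past 2-fold, where 2.47% of genes at 2 CPM and 0.145% of genes at 100 CPM were lower by as much, and Rps27 (-0.78), Rpl38 (-0.73), Rps21 (-0.65) and Rpl36 (-0.64) followed. The highest were Rpl7l1 (0.27), Rpl13 (0.21), Rpl4 (0.19), Rpl3 (0.18) and Rpl12 (0.18), and none of these met the rule.

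In the libraries labelled KO, the same step had no common direction. The median log2 fold was 0.06 (46 of 79 above 0), against -0.01 for all genes at 2 CPM and 0.03 for genes at 100 CPM. By the rule 21 members were higher in group 3, where 14.3% of genes at 2 CPM and 12.6% of genes at 100 CPM were higher, and 8 were lower, against 17% and 9.09%. Past 2-fold there was 1 member, Rpl12, where 2.24% and 0.87% of those genes were higher by as much. The highest log2 folds were those of Rpl12 (1.56), Rpl38 (0.76), Rpl37 (0.72), Rps29 (0.69) and Rpl23a (0.69). Rpl23a became a member through its level in KO group 3 alone, which favours a high fold here. The lowest were those of Rpl7a (-0.64), Rpsa (-0.56), Rpl7 (-0.49), Rps2 (-0.41) and Rpl8 (-0.41). These steps share their libraries with the KO over WT comparisons and are no second observation of the same pattern.

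In all 4 comparisons the members' folds went with gene length and with level per length. Across the 79 members, Spearman's rho between the log2 fold and log2 gene length was 0.51 for KO over WT in group 2, -0.61 in group 3, 0.63 for group 3 over group 2 in WT and -0.46 in KO. With log2 mean RPKM in place of length, rho was 0.68, -0.71, 0.57 and -0.74. These are correlations across genes of the same libraries, and the members share their depth. Across the 2700 other genes at 100 CPM, rho with length was -0.08, 0.01, 0.00 and 0.11, and with mean RPKM 0.12, -0.02, 0.04 and -0.13. Across the 2067 of these that are no longer than the longest member, rho with length was -0.07, 0.03, 0.05 and 0.17. The other genes are mostly longer than the members, so the members were also set beside other genes of like length. Genes were not matched by level in this way.

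For the 26 shortest members, the median log2 fold of KO over WT was -0.22 in group 2 and 0.45 in group 3, and 25 of the 26 genes were lower in group 2 and higher in group 3. The 35 other genes at 100 CPM that were no longer than these had medians of -0.07 and 0.30. For the 26 members of middle length, the medians were -0.10 and 0.16, beside 0.05 and 0.04 in 160 other genes of those lengths. For the 27 longest members, they were -0.04 and 0.02, beside 0.02 and 0.06 in 2505 other genes of those lengths or more. The 76 genes of mitochondrial ribosomal proteins, which are made on cytosolic ribosomes but belong to the ribosome of the mitochondrion, had medians of -0.05 and 0.15. The 35 other genes of the shortest lengths thus leaned the same way, by less, while the 160 of middle length did not have medians of opposite sign. A length trend was fitted over genes at 10 CPM other than the members. With it taken away, the members' median was -0.08 in group 2 and 0.13 in group 3. By the 25% rule 10 members then differed in group 2 and 17 in group 3, in place of 15 and 32, and 15 in place of 35 between the WT libraries. The share of all genes that met the rule with the trend taken away is not given here, so these counts stand without a background. The part of length in the members' folds was described by these values and was not tested further.

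**Figure D4:**
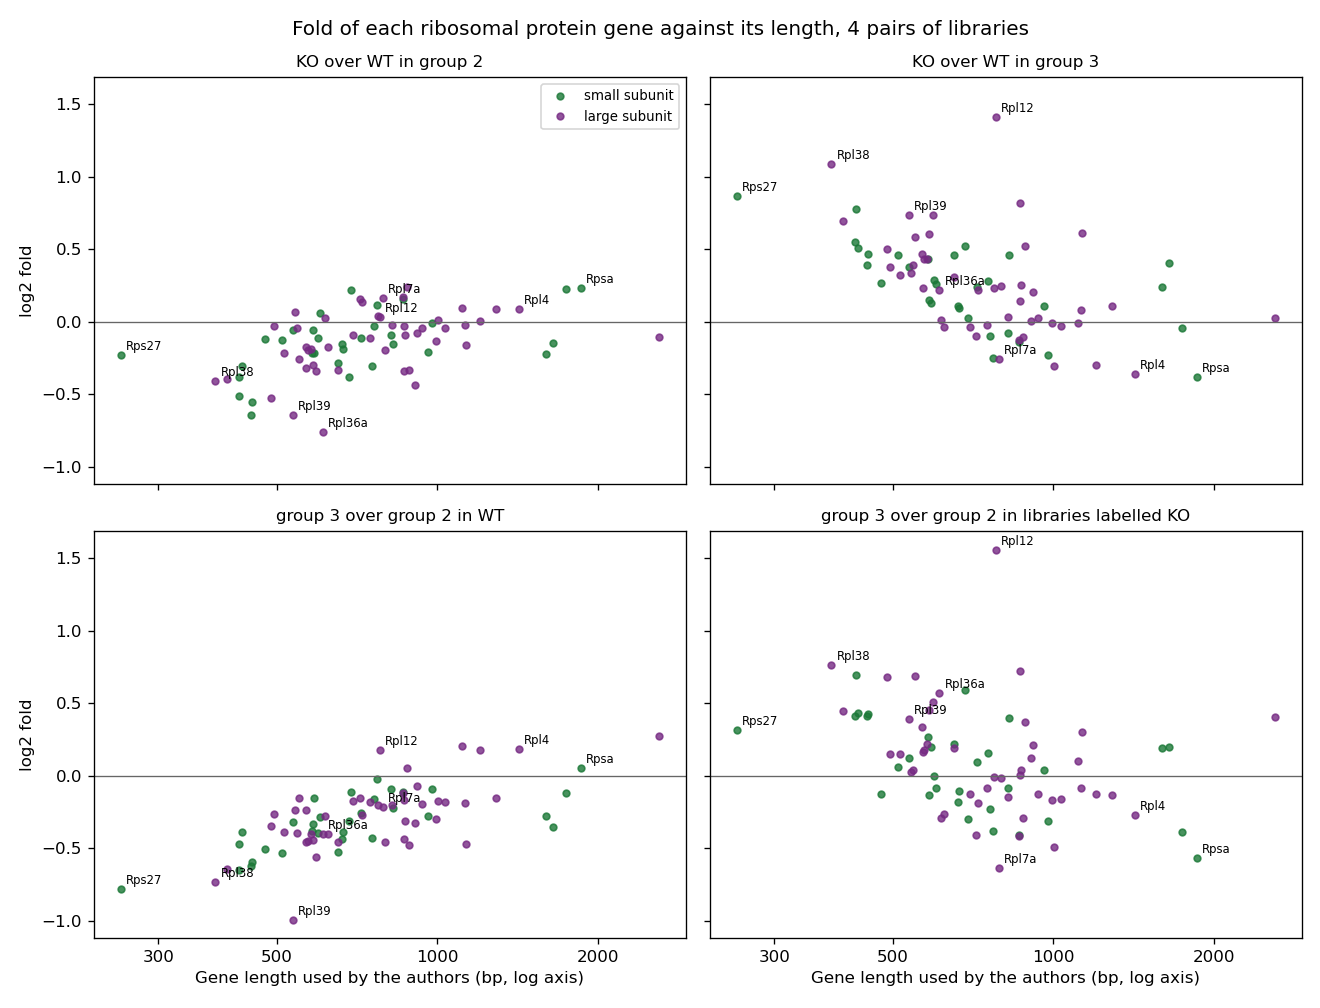
Log2 fold of each of the 79 ribosomal protein genes against the length of its gene (bp, log axis), in 4 panels for the 4 pairs of libraries; each point is 1 gene, coloured by subunit. The cloud rises with length for KO over WT in group 2 and for the WT step, and falls with length in the other 2 panels, and Rpl12 stands apart in the panels that hold KO group 3.

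**Figure D5:**
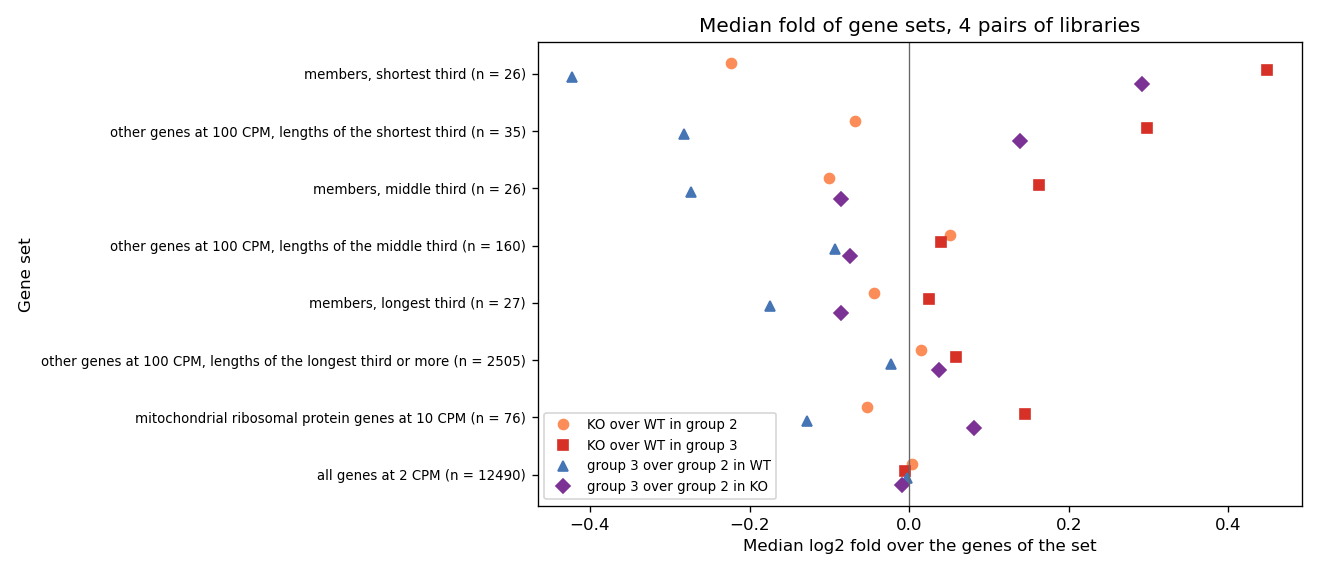
Median log2 fold (horizontal axis) of the members by length, of other genes of like length, of mitochondrial ribosomal protein genes and of all genes at 2 CPM (rows), for the 4 pairs of libraries (symbols). The symbols spread widest for the shortest members, between -0.42 and 0.45, and less for other genes of the same lengths, between -0.28 and 0.30.

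Rpl12 did not follow this pattern. Its protein sits at the base of the stalk, where it binds next to Rplp0 and helps recruit elongation factors. Rpl12 (ENSMUSG00000038900, 781 bp) was at 45.6 CPM in WT group 2, 51.8 in WT group 3, 46.8 in KO group 2 and 138.7 in KO group 3, from 479, 422, 413 and 1321 counts. KO group 3 stood alone above the other 3 libraries, which lay close together, at a ratio of 1.13 (0.993 to 1.30) for the WT step. KO over WT was 1.03 (0.896 to 1.17) in group 2 and 2.68 (2.40 to 3.00) in group 3. Among 9101 genes at 10 CPM, KO group 3 led the next library by more than it did for Rpl12 in 17 genes. In KO group 3 the listed neutrophil markers also stood highest, at a summed 42.1 CPM against 0.566 to 2.00 in the other libraries, with Ngp at 21.4 CPM against 0.191 to 0.736. With 6 markers listed, 2 were at 0 counts in each of the other libraries and 0 in KO group 3. Their part in the Rpl12 level was not tested.

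Of the other stalk genes, Rplp0 moved unlike Rplp1 and Rplp2. Rplp0 was at 1237 CPM in WT group 2, 1282 in WT group 3, 1462 in KO group 2 and 1192 in KO group 3, highest in KO group 2 and lowest in KO group 3. Rplp1, the first of the acidic stalk proteins that bind to it, was at 167, 139, 163 and 181 CPM in the same order. Rplp2, its partner, was at 126, 95, 110 and 128 CPM. Both were lowest in WT group 3 and highest in KO group 3, the reverse of Rplp0 for KO group 3. For KO over WT in group 3, the ratio was 0.930 (0.906 to 0.955) for Rplp0, 1.30 (1.21 to 1.40) for Rplp1 and 1.35 (1.23 to 1.48) for Rplp2.

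Rpl5 and Rpl11 bind 5S rRNA and, when not built into ribosomes, the p53 inhibitor Mdm2; Rpl23 also binds Mdm2. Rpl5 was at 321 CPM in WT group 2, 283 in WT group 3, 311 in KO group 2 and 278 in KO group 3, lower in group 3 in both genotypes by less than the 25% rule asks. Rpl11 was at 237, 179, 211 and 175 CPM in that order, again with both group 3 libraries below both group 2 libraries. The step met the 25% rule in WT at a ratio of 0.757 (0.709 to 0.807) and not in KO at 0.833 (0.779 to 0.890). Rpl23 was at 115, 83.9, 91.3 and 104 CPM, with WT group 3 lowest, and KO over WT went from 0.794 (0.725 to 0.869) in group 2 to 1.24 (1.13 to 1.37) in group 3.

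Rpl22 is the member with the best known part in thymocytes, and Rpl22l1 is its close copy, which can take its place in the ribosome and whose RNA is held down by Rpl22. Rpl22 was at 46.6 CPM in WT group 2, 37.2 in WT group 3, 34.3 in KO group 2 and 37.4 in KO group 3. WT group 2 stood above the other 3 libraries, and KO over WT was 0.737 (0.636 to 0.852) in group 2 and 1.01 (0.861 to 1.18) in group 3. Rpl22l1 was at 38.6, 30.3, 26.6 and 43.1 CPM, with KO over WT at 0.690 (0.585 to 0.812) and 1.42 (1.21 to 1.67). In RPKM, a level per length, Rpl22l1 was above Rpl22 in all 4 libraries, at 80.4 against 52.2 in WT group 2 and 86.5 against 40.4 in KO group 3. The coding sequences of this pair were identical at 67.5% of aligned positions.

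Rps27 and Rps27l, a p53-induced copy, have coding sequences of the same length. They are shown from the GENCODE M21 transcripts as 255 bases from start to stop codon, with the bases that differ between them in capitals, because their counts rest on telling these sequences apart.
Rps27: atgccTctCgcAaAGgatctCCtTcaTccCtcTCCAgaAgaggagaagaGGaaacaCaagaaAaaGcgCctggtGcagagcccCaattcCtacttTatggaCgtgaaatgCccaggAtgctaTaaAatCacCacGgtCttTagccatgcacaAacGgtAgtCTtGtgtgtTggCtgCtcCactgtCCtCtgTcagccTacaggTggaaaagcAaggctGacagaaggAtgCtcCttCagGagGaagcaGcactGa
Rps27l: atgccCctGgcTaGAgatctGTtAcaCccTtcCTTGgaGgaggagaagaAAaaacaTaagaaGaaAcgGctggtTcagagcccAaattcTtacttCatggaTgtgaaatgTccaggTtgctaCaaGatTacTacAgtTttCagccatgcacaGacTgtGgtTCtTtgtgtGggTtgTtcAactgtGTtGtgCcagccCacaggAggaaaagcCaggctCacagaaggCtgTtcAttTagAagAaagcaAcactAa
They were identical at 194 of 255 bases (76.1%), with no shared run longer than 11 bases. Rps27 was at 30.9 CPM in WT group 2, 17.8 in WT group 3, 26.3 in KO group 2 and 32.9 in KO group 3, with WT group 3 alone low. Rps27l was at 54.4, 35.8, 36.9 and 49.8 CPM, with WT group 3 and KO group 2 both low. KO over WT in group 2 was 0.851 (0.716 to 1.01) for Rps27 and 0.679 (0.591 to 0.779) for Rps27l, and the difference between the copies was not tested. In group 3 it was 1.85 (1.51 to 2.27) and 1.39 (1.20 to 1.61).

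After Rpl12, the widest spread between libraries was that of Rpl38 and Rpl39, short members of the large subunit. Rpl38, which is needed for translation of a set of Hox mRNAs in the mouse embryo, was at 26.2 CPM in WT group 2, 15.6 in WT group 3, 19.6 in KO group 2 and 33.6 in KO group 3, from 275, 127, 173 and 320 counts. Both upper libraries, WT group 2 and KO group 3, lay above both lower ones. KO over WT was 0.748 (0.615 to 0.908) in group 2 and 2.16 (1.75 to 2.67) in group 3. Rpl39, a small X-linked gene whose protein lines the exit tunnel, was at 31.4, 15.6, 19.9 and 26.3 CPM, with ratios of 0.634 (0.525 to 0.764) and 1.69 (1.36 to 2.10). Rpl36 was at 117, 74.7, 88.8 and 121 CPM, with ratios of 0.759 (0.693 to 0.831) and 1.63 (1.47 to 1.80). Rpl37, at 867 bp one of the longer members, nevertheless belonged with these genes, at 69.0, 50.8, 54.5 and 90.1 CPM and with ratios of 0.790 (0.702 to 0.888) and 1.77 (1.58 to 2.00). Rpl41, which encodes the smallest protein of the ribosome, was at 227, 166, 182 and 230 CPM, high in WT group 2 and KO group 3.

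Among small subunit members, Rps29, Rps21 and Rps26 moved likewise. Rps29 was at 53.9 CPM in WT group 2, 38.9 in WT group 3, 41.2 in KO group 2 and 67.0 in KO group 3, highest in KO group 3. Rps21 was at 26.2, 16.6, 18.2 and 24.5 CPM, and Rps26, which lies where mRNA leaves the small subunit, at 104, 67.0, 66.0 and 87.9 CPM. KO over WT for Rps26 was 0.638 (0.576 to 0.706) in group 2 and 1.31 (1.18 to 1.46) in group 3. Rps14 was at 461, 366, 444 and 406 CPM, with both group 3 libraries below both group 2 libraries. Rps6, the classical substrate of S6 kinase, varied little, at 547, 512, 514 and 485 CPM, and no comparison of it met the 25% rule. Rps27a, made as a fusion with ubiquitin, was at 195, 163, 180 and 193 CPM, with WT group 3 lowest and no comparison that met the 25% rule.

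Some long and abundant members made up the other side. Rpsa, also known as a laminin receptor, was at 814 CPM in WT group 2, 844 in WT group 3, 958 in KO group 2 and 647 in KO group 3, highest and lowest in the 2 libraries labelled KO. KO over WT was 1.18 (1.14 to 1.21) in group 2 and 0.767 (0.741 to 0.793) in group 3. Rpl4, whose long extension reaches into the exit tunnel, was at 1050, 1194, 1118 and 930 CPM, lowest in KO group 3. Rpl3, which lies near the peptidyl transferase centre, was at 695, 785, 699 and 640 CPM, and Rpl7 at 723, 641, 729 and 519 CPM. KO group 3 was lowest for each of these 4 genes. Rpl7a, of middle length, was also lowest there, at 266, 229, 298 and 191 CPM, with KO over WT at 1.12 (1.06 to 1.18) in group 2 and 0.835 (0.783 to 0.891) in group 3. Rpl8, Rps2 and Rps3 had their highest level in KO group 2, at 486, 655 and 783 CPM. Rpl13 was at 842, 971, 900 and 967 CPM, lowest in WT group 2, unlike the other abundant genes. Rpl7l1, the longest member at 2606 bp and a copy with 54.5% identity to Rpl7 in aligned coding sequence, was at 146, 177, 136 and 180 CPM, higher in group 3 in both genotypes.

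Of the 4 members on the X chromosome, Rpl10 (697 bp) and Rps4x (772 bp) are of middle length. Rpl10, which joins the large subunit last and is mutated in some T cell leukaemias, was at 361 CPM in WT group 2, 319 in WT group 3, 339 in KO group 2 and 311 in KO group 3, lower in group 3 by less than the 25% rule asks. Rps4x was at 331, 327, 359 and 275 CPM, with KO group 3 lowest, and its step in KO was 0.767 (0.728 to 0.808). The testis copy Rpl10l had at most 2 counts in a library, beside at least 2602 for Rpl10, although the coding sequences are identical at 84.8% of positions. Rpl39l had at most 5 counts, beside at least 127 for Rpl39, with 85.3% identity.

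Tested over all 4 libraries with edgeR's quasi-likelihood test, 1 member rose and 0 fell with genotype, where 2.95% of the 12490 genes rose and 1.87% fell (Benjamini-Hochberg adjusted p under 0.05). The test asks for an effect shared by both sorted groups. The member was Rpl12, with a log2 fold of 0.74 (SE 0.17, edgeR adjusted p = 0.00115). Its KO over WT log2 fold was larger in group 3 than in group 2 by 1.38, and its genotype SE was 0.174. For Rpl30, at 70.3 to 87.2 CPM, that difference was 0.35 and the SE 0.163. The edgeR SE of Rpl12 thus hardly reflected its disagreement between sorted groups, and its call did not weigh it. Between sorted groups 1 member rose and 0 fell, where 2.21% of genes rose and 1.14% fell, and it was again Rpl12, with a log2 fold of 0.89 (SE 0.17, edgeR adjusted p = 4.10e-05). With all 4 libraries and 1 term in the model, neither call held (folds 0.93 and 1.05, edgeR adjusted p = 0.537 and 0.655). Fits without 1 library also had 1 term, so their folds can mix genotype with sorted group. Without KO group 3, the Rpl12 fold was -0.057 for genotype and 0.16 for sorted group. The genotype fold was 0.84 without WT group 2, 1.02 without WT group 3 and 1.51 without KO group 2. The sorted group fold was 1.03 without WT group 2, 1.59 without WT group 3 and 1.06 without KO group 2. DESeq2's Wald test on all 4 libraries gave folds of 0.73 and 0.88 with an SE of 0.65 and called neither (adjusted p = 0.9997 and 0.9999). At an unadjusted p under 0.05, edgeR had 1 member higher and 0 lower for genotype, against 884 and 765 of the 12490 genes. For sorted group it had 2 members higher and 6 lower, against 733 and 598 of those genes. DESeq2 had 0 members for genotype, where 496 of those genes were higher and 309 lower. For sorted group DESeq2 had 0 members higher and 4 lower, against 379 and 237 of those genes. After Rpl12, the smallest adjusted p for sorted group was that of Rpl7a, at -0.43 (SE 0.15, edgeR adjusted p = 0.0874). The members' standard errors ranged from 0.13 to 0.36, with a median of 0.15, and the smallest log2 fold called in any gene at 100 CPM was 0.36 for genotype and 0.37 for sorted group.

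Fau, whose ribosomal protein is made as a ubiquitin-like fusion and whose symbol falls outside the rule, did not pass either test. Fau was at 138 CPM in WT group 2, 102 in WT group 3, 129 in KO group 2 and 125 in KO group 3, with WT group 3 lowest. Of 23 translation genes whose mRNAs also begin with a pyrimidine tract, Fau among them, 0 passed for genotype and 0 for sorted group. Their median log2 effects were -0.06 and -0.17, beside 0.05 and -0.12 for the members and 0.00 and -0.01 for all genes. The smallest genotype p among them belonged to Nap1l1, a histone chaperone, at 181, 134, 109 and 120 CPM (log2 fold -0.45, edgeR adjusted p = 0.0673). Hnrnpa1, a splicing protein, had -0.29, Eif4b, a cofactor of the mRNA helicase, -0.27, and Eef2, which moves the ribosome along the mRNA, -0.21.

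None of 22 genes that control ribosomal protein synthesis passed either test with edgeR. Myc, which drives transcription of ribosome genes, was at 102 CPM in WT group 2, 123 in WT group 3, 73.6 in KO group 2 and 108 in KO group 3 (log2 fold of genotype -0.33, edgeR adjusted p = 0.315). Max, its partner, was at 71.6, 82.4, 91.1 and 100 CPM, Rptor, the scaffold of mTORC1, at 33.7, 35.8, 48.7 and 39.9 CPM, and Gabpb1, a subunit of GABP, at 144, 114, 104 and 113 CPM. Of 12 tested genes for chaperones of ribosomal proteins and the 5S particle, Nap1l1 again included, 0 passed for either effect. Rrs1, which helps load the 5S particle, had a genotype log2 fold of 0.33, Ltv1, an assembly factor of the small subunit, -0.29, and Nop53, a nucleolar assembly factor, 0.22. Of the 76 mitochondrial ribosomal protein genes, 0 passed for genotype and 0 for sorted group, as for the members other than Rpl12.

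Some listed genes outside the ribosome did differ with genotype. Of 5 cell cycle genes, 4 fell, namely Cenpf (-0.80), Top2a (-0.59), Mki67 (-0.57) and Ccnb1 (-0.55), each as a log2 fold with an edgeR adjusted p under 0.05. All 5 tested genes listed for cell handling rose with genotype, and 3 of them, Junb, Egr1 and Ier2, also rose with sorted group. Junb was at 559 CPM in WT group 2, 995 in WT group 3, 1284 in KO group 2 and 1924 in KO group 3. Rag1, a recombinase gene of immature thymocytes, was the single thymocyte marker that fell, with a log2 fold of -0.62 (SE 0.15, edgeR adjusted p = 0.00143). Among markers of other cells, C1qb of macrophages rose with genotype, at 3.72 CPM in WT group 2, 8.09 in WT group 3, 9.18 in KO group 2 and 15.8 in KO group 3. Ngp and Ltf of neutrophils passed for both genotype and sorted group, from KO group 3 alone, with 204 and 72 counts there against at most 6 and 1 in the other libraries, and 0 of 5 tested B cell and 0 of 5 tested erythroid markers passed. These are values that stood beside the members in the same libraries, and their part in the members' levels was not tested.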

How the data were processed

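The authors deposited read counts per Ensembl gene for 4 libraries and RPKM per library. The submitters' processing notes name TopHat2 2.0.12 and mm10. The counting program, annotation, strand setting and handling of multiply aligned reads are not given in the sources used here, so overlapping genes cannot be told apart. Every checked pair of deposited RPKM and counts implied a whole gene length within 0.01 bp, and those lengths were used. Symbols came from GENCODE M21 (34490 of 35275 IDs).

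Genes at 2 CPM in at least 1 library (12490) entered edgeR 4.0.16 (TMM, quasi-likelihood F test with genotype and sorted group as terms, which left 1 residual degree of freedom), and p-values were adjusted over all of them by Benjamini-Hochberg. The common dispersion was 0.0288. Each fold of 1 library over another is log2 of TMM-scaled CPM plus 0.5, and its interval is the exact conditional binomial 95% interval of the count ratio. P-values rest on these 4 libraries only, with 1 library per group, and do not measure the spread between mice. The length trend was fitted over genes at 10 CPM other than the members and taken away as an alternative. The fits were tested on simulated data.

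Members and lists were chosen with earlier results of these data known. Named genes were those with a known separate role or a copy, the 5 highest and 5 lowest folds of each pair, called members, the 3 highest and lowest mean RPKM, and up to 4 genes per list by genotype p; some items these rules name are not reported here. Protein identity was planned; coding sequences were aligned instead (Biopython 1.88).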

Additional observations from a re-analysis of the deposited data

Results flagged for a closer look

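For 12 members, KO over WT was below 1 in group 2 and above 1 in group 3, with intervals excluding 1. Each time the higher library was at least 25% above the lower. The difference of the log2 folds, group 3 minus group 2, was 1.5 for Rpl38, 1.38 for Rpl39, 1.16 for Rpl37, 1.16 for Rps29, 1.09 for Rpl36, 1.07 for Rpl35, 1.06 for Rps21, 1.03 for Rpl22l1, 1.03 for Rps26, 1.02 for Rps27l, 0.90 for Rps25 and 0.85 for Rpl35a. With 1 library per group, these differences between the sorted groups were not tested.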

How the results depend on the processing

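The members' medians and counts by the 25% rule kept their direction under DESeq2 size factors, library totals, TMM without ribosomal protein genes, pseudogene counts added, members taken at 2 CPM, and without Rpl12, and the medians also with a pseudocount of 2 CPM. With the length trend removed, an alternative added after seeing the data, the median in group 3 was 0.13 in place of 0.24. The members that met the 25% rule were 17 in place of 32 in group 3 and 15 in place of 35 between the WT libraries. The share of all genes that met it with the trend removed is not given here. The cause was not tested. Past 1.5-fold there were 3 members in group 2, 11 in group 3, 7 for the WT step and 8 for the KO step. Past 2-fold there were 0, 2, 1 and 1, as stricter thresholds must give fewer. Past 1.5-fold, the 3 and the 7 were all lower, the 11 all higher, and of the 8, 7 were higher and 1 lower. Of the 12490 genes at 2 CPM, 1469 were higher and 1038 lower in group 2, and 835 and 1363 in group 3. For the WT step these were 1262 and 799, and for the KO step 781 and 1376. Of the 2760 genes at 100 CPM they were 111 and 63, 109 and 53, 91 and 41, and 88 and 61. The share of counts in members was 2.32%, 2.08%, 2.25% and 2.04% of nuclear protein-coding counts in WT group 2, WT group 3, KO group 2 and KO group 3. With pseudogenes added it was 2.23%, 2.00% and 2.15% in the first 3.

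For Rpl12, DESeq2's Wald test and a model with 1 term each called 0 members for genotype and 0 for sorted group, in place of 1, with folds of 0.73 and 0.88 by DESeq2 and 0.93 and 1.05 with 1 term. Leaving out 1 library at a time was also done with 1 term in the model. The genotype effect of Rpl12 then ranged from -0.057 without KO group 3 to 1.51 without KO group 2, and the sorted group effect from 0.16 to 1.59, where a lone library was assumed to vary like the others. No paired analysis was possible because each group held 1 library with no replicate number. Depth limits single folds, since the member with the fewest counts, Rpl23a, had 57.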

Other observations

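The genes at 10 CPM whose pattern over the 4 libraries lay closest to that of Rpl12, by the distance of their log2 levels after centring each gene on its mean, were sought by a rule written after its value in KO group 3 was known. The 3 closest were Adgrg5, Dis3 and Rrnad1. Adgrg5, an adhesion G protein-coupled receptor, was at 5.62 CPM in WT group 2, 9.44 in WT group 3, 6.80 in KO group 2 and 17.1 in KO group 3. Dis3, a ribonuclease of the RNA exosome, was at 8.10, 7.11, 9.97 and 28.6 CPM, and Rrnad1 at 19.3, 24.2, 18.2 and 41.9 CPM. Likeness over 4 libraries is weak, since any gene that is high in KO group 3 alone will show it.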
